A study of Mus musculus with 66 samples.

Results

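Desmosomes are the adhesive plaques that couple the keratin filaments of neighbouring epithelial cells. The 10 mouse genes described here encode their main components: desmoplakin (Dsp), plakoglobin (Jup), the plakophilins Pkp1, Pkp2 and Pkp3, the desmogleins Dsg2 and Dsg3, the desmocollins Dsc2 and Dsc3, and the tetraspan protein Perp. They were taken as a list of established desmosome components, chosen with earlier results of these data known. Counts of these genes set beside the share of all genes therefore only describe the list. Each gene was found in the count tables by its Ensembl identifier. All 10 were present among the 39179 genes counted.

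The study sequenced 4 RNA samples: the mouse bladder cancer cell line BC57 and normal mouse urothelium, each kept fresh frozen and also fixed in formalin and embedded in paraffin. BC57 cells were grown in DMEM with 10% fetal serum, and 1 harvested pellet was divided into a frozen and a fixed portion. The urothelium came from 9 mice, each specimen being divided in the same way. Fixed material spent 24 hours in buffered formalin. How the tissue of these mice was combined, and their strain, age and sex, were not given in the sources used here. BC57 is a single cultured line, while dissected urothelium can carry cells of the bladder wall below it. RNA of each sample was made into libraries with the Ovation SoLo kit at 50 pg, 250 pg and 2 ng and with the SMARTer Pico kit at 250 pg and 2 ng, both strand-specific total RNA methods with ribosomal RNA depletion. The frozen samples were also sequenced after poly(A) selection from 1 µg, which the study took as its reference. Each of the 22 combinations of sample, preservation, kit and input had 3 repeat libraries, giving 66 libraries. No source says that repeats began from separate cultures or animals, so the p-values below measure only the spread between these libraries, which may be technical.

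In a desmosome, desmogleins and desmocollins bind their counterparts on the adjacent cell, plakoglobin and the plakophilins bind the cadherin tails, and desmoplakin links this plaque to keratin. Dsg2, Dsc2 and Pkp2 are found in simple and stratified epithelia alike, whereas Dsg3, Dsc3 and Pkp1 are best known from basal and stratified layers such as epidermis. Urothelium is a layered epithelium of basal, intermediate and umbrella cells, held together in part by desmosomes.

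Promoter sequence was at hand for 2 of the 10 genes, the plaque proteins Dsp and Jup, and both are shown because Dsp and Jup gave different results in the comparisons below. The windows are the 250 bases before each RefSeq start on GRCm38.p6, written 5′ to 3′ on the strand of the gene. Capitals mark every GC box, searched as GGGCGG on both strands, so that a box on the other strand reads CCGCCC.
Dsp, chr13:38151044-38151293, plus strand: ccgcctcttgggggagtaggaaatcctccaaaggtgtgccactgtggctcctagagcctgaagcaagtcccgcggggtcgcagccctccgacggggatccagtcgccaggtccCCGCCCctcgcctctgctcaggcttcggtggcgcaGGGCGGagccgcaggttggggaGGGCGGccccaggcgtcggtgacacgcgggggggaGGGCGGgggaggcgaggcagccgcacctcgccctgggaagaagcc
Jup, chr11:100397791-100398040, minus strand: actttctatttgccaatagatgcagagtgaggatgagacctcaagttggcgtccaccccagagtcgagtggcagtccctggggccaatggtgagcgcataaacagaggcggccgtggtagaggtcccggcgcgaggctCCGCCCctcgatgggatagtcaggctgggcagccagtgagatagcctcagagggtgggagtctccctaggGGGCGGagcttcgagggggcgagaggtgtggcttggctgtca
The Dsp window had a GC content of 72.4% and 22 CpG dinucleotides, with GC boxes starting at -137, -102, -80 and -45 from the start. The Jup window had a GC content of 62.0%, 13 CpG dinucleotides and GC boxes at -112 and -42. Across 32851 promoters of this length the median was 52.4% GC and 6 CpG, and 32.7% held a GC box. Neither window held CACCTG, the E-box bound by Snail and Zeb factors (17.2% of promoters), AACNGGTT, the Grainyhead-like motif (1.79%), TGANTCA, the AP-1 motif (6.75%), or TATAAA, the TATA box (12.4%). These are letter matches within the windows only.

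Library totals were 928722 to 4706030 counts with Ovation, 651879 to 7152648 with SMARTer and 18499591 to 36187226 with poly(A). Levels are in CPM, counts relative to the library total after trimmed-mean (TMM) scaling within each comparison, and CPM per kb of exon where genes are set against each other. In the poly(A) libraries, luminal urothelial markers (Upk1a, Upk1b, Upk2, Upk3a, Upk3b, Krt20) summed to 353 to 358 CPM in BC57 and 7461 to 8281 in urothelium, and 6 of 6 were lower in BC57. The 6 fibroblast markers summed to 6.24 to 8.56 CPM in BC57 and 9248 to 10022 in urothelium, with 6 of 6 lower in BC57 and none at 0 in either sample. The stroma's part in the desmosome gene differences was not tested. In bulk RNA, fewer cells of a type and less RNA per cell cannot be told apart. The libraries numbered 3 of the SMARTer fixed groups stood apart: that of urothelium at 2 ng had 780106 counts spread over 30912 genes, against 20100 and 19739 genes in the other 2 libraries, and its luminal marker sum was 643 CPM against 2973 and 3026. At 250 pg the third urothelial library had 651879 counts, 19403 genes against 15768 and 14186, and a luminal sum of 517 CPM against 3008 and 3127. The third BC57 library at 2 ng had counts in 26973 genes, against 18794 and 18855. Library 3 of urothelium with Ovation frozen RNA at 250 pg also stood apart, with counts in 13253 genes against 18223 and 17676. For tests of single genes in these conditions, values with and without these libraries are given. Ranks and correlations over the 22 groups include them.

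The deepest comparison, BC57 against urothelium in poly(A) libraries, asked how the cancer line differs from normal urothelium. BC57 carried more Pkp1, Pkp2, Pkp3, Dsg3 and Dsc3 RNA and less Dsp, Dsg2, Dsc2 and Perp RNA, and Jup did not pass the test. The largest shifts of well-counted genes were Dsg2, 245 ± 1.81 CPM (SD, n = 3) in urothelium against 25.2 ± 0.583 in BC57, and Pkp2, 9.31 ± 1.02 against 70.5 ± 1.55. By edgeR's quasi-likelihood test with Benjamini-Hochberg adjustment over all 17934 genes tested, 9 of the 10 passed an adjusted p of 0.05, 5 higher and 4 lower in BC57. The 5 include Dsc3, which entered the test through its BC57 libraries alone. The background was high: 91.3% of all genes passed, 42.8% higher and 48.5% lower, so the count by itself is near the background. The share of all genes whose libraries did not overlap is not given here or below, so such separation only describes single genes. The median log2 difference was 0.38 over the 10 genes and -0.12 over all genes tested.

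Among plaque proteins, Dsp (chr13:38151294-38198577 on mm10, plus strand) is the obligate link from plaque to keratin. Its 3 BC57 libraries held 205, 204 and 209 CPM and its 3 urothelial libraries 389, 393 and 390.5. The groups did not overlap, and Dsp was lower in BC57 by a log2 difference of -0.92 (SE 0.04; edgeR adjusted p = 9.7e-16). Jup (chr11:100368958-100397763, minus strand) is shared with adherens junctions, where it can stand in for beta-catenin. It was measured at 247.1, 247.7 and 248 CPM in BC57 and 222, 244 and 246.8 in urothelium. The highest urothelial library lay just below the lowest of BC57, and the log2 difference of 0.06 had a 95% interval of -0.02 to 0.14 (edgeR adjusted p = 0.183). Jup passed when BC57 library 2 was left out (0.12, edgeR adjusted p = 0.0202) or without the low-count filter (0.12, edgeR adjusted p = 0.00858), and its sign turned on the deposited log2 values (-0.044), so no direction is given for it.

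The plakophilins, armadillo proteins that cluster desmosomal cadherins, were all higher in BC57. Pkp2 (chr16:16213318-16272712, plus strand) stood at 70.7, 71.9 and 68.8 CPM in BC57 against 10.4, 9.23 and 8.32 in urothelium, a log2 difference of 2.94 (SE 0.06; edgeR adjusted p = 2.1e-20). Pkp3 (chr7:141078218-141090510, plus strand) stood at 124, 119.6 and 125 CPM against 52.03, 61.9 and 63.3, a log2 difference of 1.05 (SE 0.06; edgeR adjusted p = 1.24e-13). Pkp1 (chr1:135871395-135919207, minus strand) stood at 42.4, 44.9 and 45.1 CPM against 24.97, 27.6 and 27.96, a log2 difference of 0.71 (SE 0.05; edgeR adjusted p = 7.98e-11). No plakophilin had overlapping groups, and the step between samples was largest for Pkp2 and smallest for Pkp1.

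The desmosomal cadherins lie together on chromosome 18 and went different ways. Dsg2 (chr18:20558074-20604521, plus strand), the widely expressed desmoglein, was at 24.6, 25.3 and 25.7 CPM in BC57 and 245, 247 and 243 in urothelium, a log2 difference of -3.28 (SE 0.04; edgeR adjusted p = 6.82e-24). Dsc2 (chr18:20030633-20059554, minus strand), its usual desmocollin partner, was at 20.9, 22.4 and 20.7 CPM and 56.5, 55.9 and 54.3, a log2 difference of -1.39 (SE 0.05; edgeR adjusted p = 1.98e-16). Both were lower in all BC57 libraries than in any urothelial one. The antisense gene Gm16090 shares 330 exonic bases with Dsg2, and use of strand in counting was not given in the sources used here.

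Cadherins of the stratified type ran the other way at low levels. Dsc3 (chr18:19960930-20002351, minus strand) was at 12.8, 12.1 and 12.1 CPM in BC57, 1072 counts in all, and at 0.0511, 0.192 and 0.0918 in urothelium, 9 counts in all. The fitted log2 difference was 6.69 (SE 0.20; edgeR adjusted p = 7e-18). Dsg3 (chr18:20510274-20547459, plus strand), best known as the pemphigus vulgaris antigen, was at 1.90, 1.95 and 1.83 CPM in BC57 and 0.511, 0.462 and 0.520 in urothelium, from 163 and 39 counts, a log2 difference of 1.91 (SE 0.22; edgeR adjusted p = 4.5e-08). The groups of neither gene overlapped. Dsc3 entered the test through its BC57 libraries alone.

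Perp (chr10:18845020-18857073, plus strand), a p53 and p63 target that desmosomes of stratified epithelia need, was at 118, 125 and 121 CPM in BC57 and 513, 485 and 499 in urothelium. The log2 difference was -2.05 (SE 0.04; edgeR adjusted p = 5.82e-21), and all urothelial libraries lay above all BC57 libraries.

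**Figure D1:**
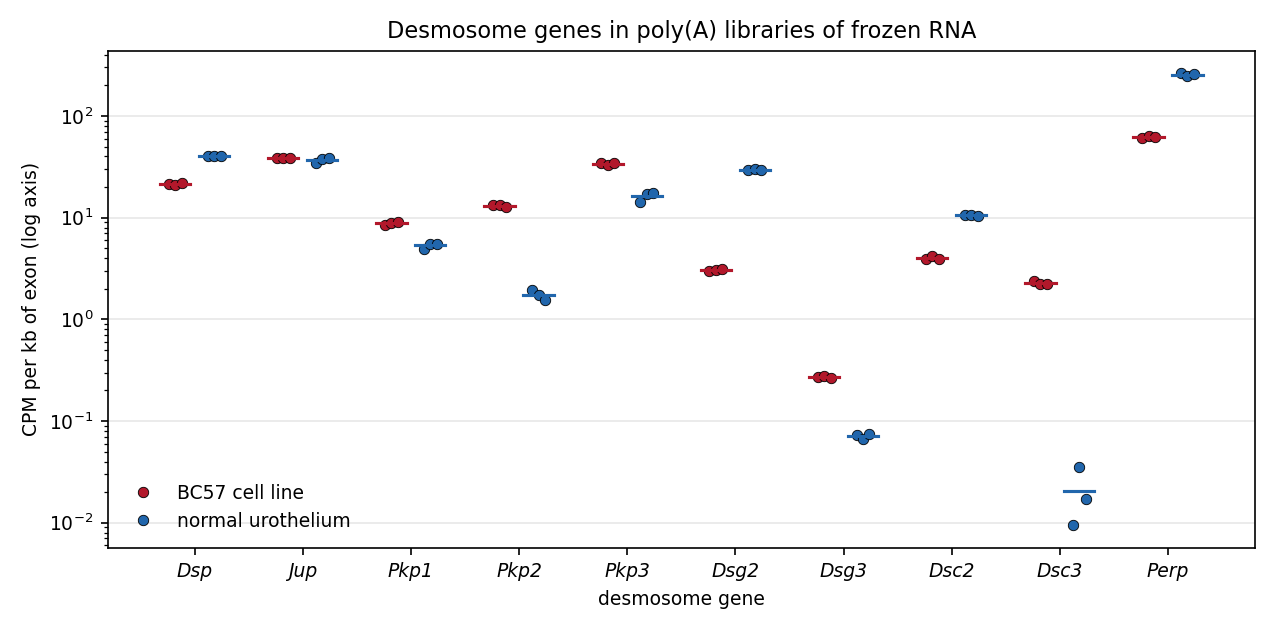
Level of each desmosome gene (CPM per kb of exon, log axis) in the 3 poly(A) libraries of BC57 (red) and of urothelium (blue). Points are libraries and lines are means. Perp is the highest gene in both samples, Dsg2 is 29.6 in urothelium and 3.05 in BC57, and Dsc3 is 2.28 in BC57 and 0.0207 in urothelium.

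Per kb of exon, the order of mean levels in BC57 was Perp at 62.0, Jup 38.5, Pkp3 33.97, Dsp 21.3, Pkp2 13.1, Pkp1 8.79, Dsc2 4.04, Dsg2 3.05, Dsc3 2.28 and Dsg3 0.271 CPM per kb. In urothelium it was Perp at 256, Dsp 40.5, Jup 36.9, Dsg2 29.6, Pkp3 16.3, Dsc2 10.53, Pkp1 5.34, Pkp2 1.74, Dsg3 0.0713 and Dsc3 0.0207. Neighbours in each order had separate library ranges. Over all 22 groups Perp ranked first of the 10 in every group of both samples, and Dsg3 ranked last in all 11 BC57 groups. Dsg2 ranked between 2 and 4 in the urothelial groups (median 3) and between 7 and 9 in the BC57 groups (median 8), while Dsp ranked 2 to 3 and 2 to 4.

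Related junction genes were read from lists drawn up for this comparison, with earlier results of these data known. Of 9 other desmosomal family genes, 4 had enough counts to test: Pkp4, a plakophilin relative of adherens junctions, was higher in BC57 (148 ± 0.827 against 111 ± 2.51 CPM, log2 difference 0.41, edgeR adjusted p = 1.88e-09), as was Cdsn, corneodesmosin (17.5 ± 0.398 against 0.322 ± 0.121 CPM, 5.82, edgeR adjusted p = 4.96e-19). The plakin Evpl was lower (60.2 ± 0.455 against 226 ± 10.9 CPM, -1.91, edgeR adjusted p = 4.88e-20), and the plakin Ppl did not pass (217 ± 1.19 against 224 ± 5.74 CPM, -0.05, edgeR adjusted p = 0.211). Ppl passed as lower without urothelial poly(A) library 1 (-0.07, edgeR adjusted p = 0.0229), and its difference was 0.01 without BC57 library 2. The counts of the family and of the lists below stand beside the 91.3% of all genes that passed, 42.8% higher and 48.5% lower. The epidermal cadherins Dsg1a, Dsg1b, Dsg1c and Dsc1 had at most 3 counts in either sample, and Dsg4 had 0 counts in BC57 and 27 in urothelium, at least 9.95-fold lower in BC57 with 3 counts per group taken as the floor.

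Of 11 adherens junction genes, 5 were higher and 6 lower in BC57, with a median log2 difference of -0.51, beside 42.8% higher, 48.5% lower and a median of -0.12 over all genes. Cdh1, E-cadherin, was 385 ± 4.85 against 588 ± 11.4 CPM (-0.61), and Cdh3, P-cadherin, 207 ± 5.10 against 9.18 ± 0.369 CPM (4.50). The nectins Nectin4 (-5.85) and Nectin1 (-3.75) were lower, and their cytoplasmic partner Afdn (2.80) and alpha-catenin Ctnna1 (1.08) were higher. Of 9 hemidesmosome genes, 5 were higher and 4 lower: the laminin chains Lama3 (1.49) and Lamb3 (0.67) were higher, and Col17a1 (-4.21) and Dst (-3.23) lower. Of 10 keratins that desmosomes anchor, 6 were higher, 3 lower and 1 did not pass. Krt14 was 368 ± 10.4 against 1.78 ± 0.127 CPM, Krt6a and Krt17 were also higher (8.04 and 5.56), Krt8 was 2515 ± 52.9 against 1030 ± 38.4 CPM, and Krt15 and Krt5 were lower, Krt5 at 20.9 ± 0.956 against 1601 ± 84.7 CPM. Of 14 regulators, 13 were lower and 1 higher, with a median of -3.17, where 48.5% of all genes were lower and 42.8% higher. That count describes the listed genes only. Fibroblast markers summed to 9248 to 10022 CPM in these urothelial libraries and 6.24 to 8.56 in BC57. The stroma's part in the differences of these lists was not tested. Trp63, the basal-cell transcription factor that activates Perp, was 0.777 ± 0.0949 against 406 ± 16.6 CPM, Gata3 (-6.70), Grhl3 (-5.23) and Zeb1 (-5.20) were lower, and Twist1, at 0 counts in BC57 and 2.03 ± 0.369 CPM in urothelium, was at least 58.96-fold lower. Each value in brackets is a log2 difference that passed edgeR's test.

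The same contrast could be read in 10 further conditions. Dsg2 was lower in BC57 in all 11, with log2 differences of -3.78 to -2.40, and the libraries of the 2 samples never overlapped. Perp was lower in 10 (-2.20 to -1.46 over all 11), Pkp2 higher in 10 (0.18 to 3.28), and Dsp lower in 9 (-1.32 to 0.00). Dsc2 was lower in 9 (-1.76 to -0.69), Pkp3 higher in 6 (0.51 to 2.36), Pkp1 higher in 5 (-0.08 to 1.27), and Jup higher in 2 (-0.29 to 0.58). Over the 9 conditions outside SMARTer fixed RNA, Dsp was lower in 9 (-1.32 to -0.45) and Pkp2 higher in 9 (2.21 to 3.28). There Perp was lower in 9 (-2.20 to -1.46) and Dsc2 in 8 (-1.76 to -1.12). Pkp3 was higher in 6 (0.51 to 1.61) and Pkp1 in 5 (0.17 to 1.27). The conditions reuse the same RNA and are repeat measurements of it.

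The number of desmosome genes passing edgeR's test is set beside the share of all genes that passed. With Ovation frozen RNA it was 8 of 9 at 2 ng, 4 higher and 4 lower (background 79.1%, 37.6% higher and 41.4% lower), 7 of 9 at 250 pg, 3 higher and 4 lower (48%, 21.6% and 26.4%), and 6 of 8 at 50 pg, 2 higher and 4 lower (45.2%, 20.2% and 25%). With Ovation fixed RNA it was 9 of 9 at 2 ng, 5 higher and 4 lower (77%, 36.7% and 40.3%), 7 of 9 at 250 pg, 3 higher and 4 lower (52.2%, 24% and 28.2%), and 5 of 9 at 50 pg, 2 higher and 3 lower (33.5%, 14.7% and 18.8%). With SMARTer frozen RNA it was 8 of 9 at 2 ng, 4 higher and 4 lower (77.5%, 36.3% and 41.2%), and 7 of 9 at 250 pg, 3 higher and 4 lower (51.4%, 23.9% and 27.5%). With SMARTer fixed RNA it was 4 of 9 at 2 ng, 1 higher and 3 lower (30%, 13.7% and 16.3%), and 1 of 9 at 250 pg, a lower one (9.38%, 3.8% and 5.58%). These counts include Dsc3 wherever its BC57 libraries alone carried it past the filter, so they do not speak for the whole set.

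**Figure D2:**
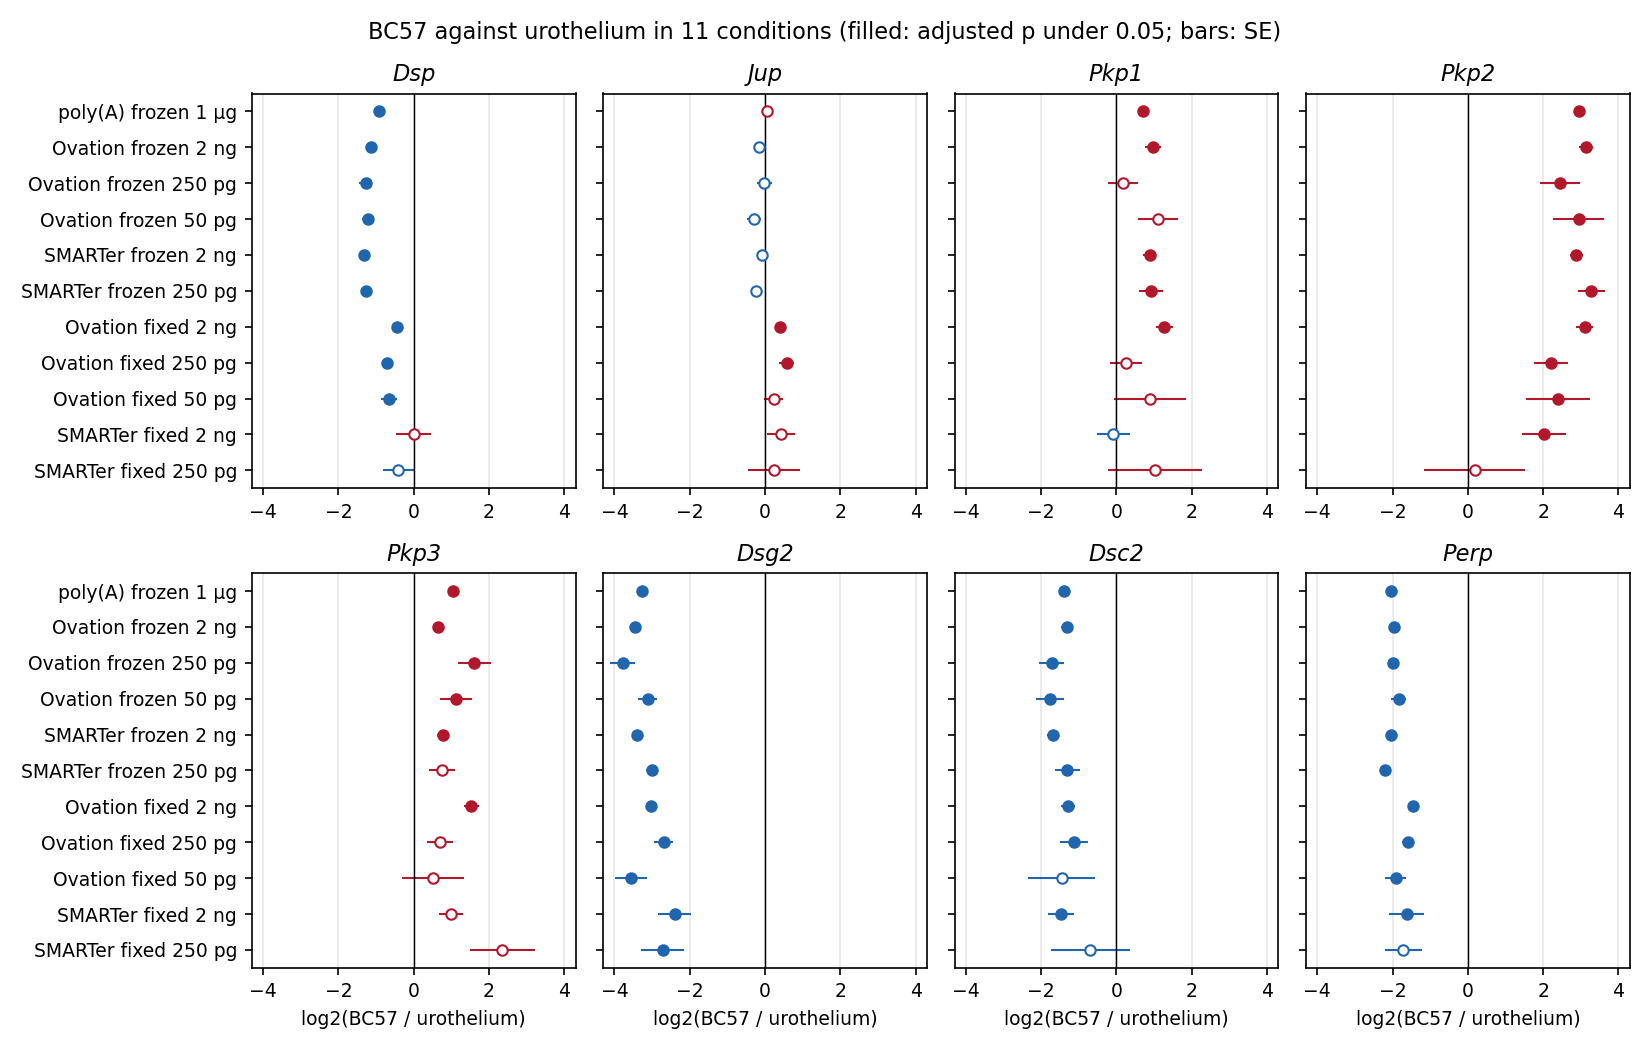
Log2 difference between BC57 and urothelium (x axis) for 8 desmosome genes in 11 conditions (y axis), with bars of 1 SE. Filled points passed an adjusted p of 0.05. Dsg2 is below -2 in all 11 conditions, Jup lies between -0.29 and 0.58, and Dsp lies between -1.32 and -0.92 in frozen RNA.

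With Ovation at 2 ng of frozen RNA, the values resembled those of poly(A). Dsg2 was 23.9, 29.3 and 23.8 CPM in BC57 and 271, 289 and 286 in urothelium (log2 difference -3.46, SE 0.11, edgeR adjusted p = 5.8e-27). Pkp2 was 69.0, 70.5 and 72.6 CPM against 7.23, 8.97 and 7.66 (3.14, SE 0.18, edgeR adjusted p = 4.88e-18). Perp was 149, 139 and 171 CPM against 540.2, 609.5 and 629 (-1.96, SE 0.08, edgeR adjusted p = 6.05e-23). These 3 genes kept their groups apart at every input of this kit in frozen RNA.

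At 50 pg of frozen RNA the spread was wider but the groups of the leading genes stayed separate. Dsg2 was 47.2, 30.6 and 23.9 CPM in BC57 and 298, 248 and 317 in urothelium. Perp was 210.2, 128 and 133 CPM against 522, 597 and 550.2. Pkp2 was 58.4, 51.6 and 71.1 CPM against 0.687, 6.20 and 17, the highest urothelial library lying well under the lowest of BC57. In fixed RNA at 50 pg, Pkp2 was 61.2, 41.2 and 39.3 CPM in BC57 and 22.2, 1.48 and 3.55 in urothelium (log2 difference 2.39, edgeR adjusted p = 0.0493). That call was lost without BC57 library 1, 2 or 3 or urothelial library 2 or 3 (edgeR adjusted p from 0.0685 to 0.134) and with RLE scaling (0.0554). Dsp there (-0.66, edgeR adjusted p = 0.0325) was lost without BC57 library 1 or 3 or urothelial library 1 or 3 (edgeR adjusted p from 0.0542 to 0.117). Without BC57 library 1, BC57 library 3 or urothelial library 3, 3 desmosome genes passed instead of 5.

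The weaker members were less stable at low input. Pkp3 passed at 250 pg of frozen RNA with Ovation (1.61, edgeR adjusted p = 0.016) but not without BC57 library 1, BC57 library 3 or urothelial library 2 (edgeR adjusted p from 0.0525 to 0.0562). In that condition, without urothelial library 3, Pkp3 was 1.36 (edgeR adjusted p = 0.00169), Dsp went from -1.28 to -1.03, Dsc2 from -1.72 to -1.32 and Dsg2 from -3.78 to -3.52, all passing, and Pkp2 (2.64), Perp (-1.94) and Dsc3 passed as well. At 50 pg (1.12, edgeR adjusted p = 0.0429) Pkp3 did not pass without any 1 library except urothelial library 1 (edgeR adjusted p from 0.0514 to 0.132 without each of the others), nor with RLE scaling (edgeR adjusted p = 0.0503) or on the deposited log2 values (limma adjusted p = 0.0673). Pkp1 with SMARTer at 250 pg of frozen RNA (0.92, edgeR adjusted p = 0.0285) did not pass without BC57 library 2 or 3 or urothelial library 1 or 3 (edgeR adjusted p from 0.0523 to 0.0924), without the low-count filter (0.0665) or with the replicate block (0.0682). Dsc2 at 250 pg of fixed RNA with Ovation (-1.12, edgeR adjusted p = 0.0206) did not pass without BC57 library 1 or 3 or urothelial library 1 or 3 (edgeR adjusted p from 0.0725 to 0.0877).

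The size of the Dsp difference went with preservation. In frozen RNA it was -0.92 with poly(A), -1.14, -1.28 and -1.22 with Ovation at 2 ng, 250 pg and 50 pg, and -1.32 and -1.27 with SMARTer. In fixed RNA with Ovation it was -0.45, -0.71 and -0.66. Jup did not pass in any frozen condition by edgeR with TMM, although with RLE scaling, the replicate block or the deposited log2 values all 9 genes tested passed with Ovation frozen RNA at 2 ng, Jup as lower. Jup was higher in BC57 with Ovation fixed RNA at 2 ng (173, 146 and 174 CPM against 132, 116 and 124; 0.40, SE 0.09, edgeR adjusted p = 7.12e-05) and at 250 pg (0.58, edgeR adjusted p = 0.0247). The latter call was lost without BC57 library 2 or urothelial library 2 or 3 (edgeR adjusted p from 0.0620 to 0.0784) and on the deposited log2 values (limma adjusted p = 0.0743). At 2 ng the lowest BC57 library lay above the highest urothelial one.

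In SMARTer fixed RNA the third libraries decided many values. Urothelial Dsp at 2 ng was 393 and 339 CPM in libraries 1 and 2 and 115 in library 3. Dsg2 was 195, 210.4 and 73.6 CPM and Perp 365, 369.6 and 118, each lowest in library 3. Pkp1 at 20.2, 15.98 and 47.1 CPM and Pkp2 at 7.96, 5.23 and 26.4 were highest there. With all libraries, Pkp2 (2.02, edgeR adjusted p = 0.034), Dsg2 (-2.40, edgeR adjusted p = 0.00694), Dsc2 (-1.48, edgeR adjusted p = 0.0168) and Perp (-1.62, edgeR adjusted p = 0.0354) passed. Without the low-count filter Dsc2 (edgeR adjusted p = 0.0642) and Perp (edgeR adjusted p = 0.111) did not, nor did Dsc2 on the deposited log2 values (limma adjusted p = 0.0615). Without the libraries numbered 3, 8 genes passed: Dsp (-0.28, edgeR adjusted p = 0.0419), Jup (0.42, edgeR adjusted p = 0.0331), Pkp2 (2.76), Pkp3 (1.17), Dsg2 (-2.79), Dsc2 (-1.55), Dsc3 and Perp (-1.87). Calls over all genes rose in that fit too, so the rise was not particular to the desmosome genes. Leaving out BC57 library 1 or 2 or urothelial library 1 or 2 left 0 of the desmosome genes passing, leaving out BC57 library 3 left 2, and leaving out urothelial library 3 left 6. At 250 pg, Dsg2 passed with all libraries (-2.72, edgeR adjusted p = 0.0214), and Dsg2 (-2.44, edgeR adjusted p = 0.00894), Perp (-1.89, edgeR adjusted p = 0.0422) and Dsc3 passed without the third ones. There, 0 genes of the set passed without any 1 of the other 5 libraries, and 3 passed without urothelial library 3. At both inputs the calls over all genes also varied widely between these fits, and their numbers are in the closing section.

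Dsc3 counts in urothelium were at or near 0 outside those libraries. With Ovation there were 0 counts over the group in frozen RNA at 2 ng and 250 pg and in fixed RNA at 2 ng and 250 pg, and with SMARTer 0 in frozen RNA at 250 pg. With 3 counts per group taken as the floor, BC57 was at least 23.2-fold higher with Ovation frozen RNA at 2 ng (80 counts), 31.6-fold at 250 pg (104 counts), 31.2-fold in fixed RNA at 2 ng (115 counts) and 45.7-fold at 250 pg (156 counts), and at least 65.9-fold higher with SMARTer frozen RNA at 250 pg (215 counts). Where urothelium had 1 or 2 counts, the ratio was 86.6 (95% exact interval 15 to 3475; 64 against 1 count) with Ovation frozen RNA at 50 pg, 225 (39.97 to 8904; 269 against 1) with fixed RNA at 50 pg, and 109 (29.9 to 907; 219 against 2) with SMARTer frozen RNA at 2 ng. These intervals and floors cover counting error only. The shallowest BC57 library, Ovation frozen RNA at 50 pg library 1, had 0 Dsc3 counts in 928722, and its 2 companions had 47 and 17. In SMARTer fixed urothelium, Dsc3 was counted in library 3 alone, 24 counts (27.6 CPM) at 2 ng and 13 counts (19.7 CPM) at 250 pg.

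Outside poly(A), Dsg3 did not pass the low-count filter in any comparison of BC57 with urothelium that used all libraries. It had counts in 24 of 33 BC57 libraries and 20 of 33 urothelial libraries. With Ovation frozen RNA at 2 ng the groups held 13 and 8 counts, and at 50 pg 1 and 33 counts, 28 of the latter in 1 urothelial library. In SMARTer fixed urothelium it was again counted in library 3 alone, 16 counts at 2 ng and 38 at 250 pg. With Ovation fixed RNA at 2 ng it had 26 counts in BC57 and 2 in urothelium, a ratio of 10.6 (95% exact interval 2.65 to 92.0). There, Dsg3 entered the test without the low-count filter or without any 1 of the 3 urothelial libraries. In these fits all 10 genes passed, Dsg3 as higher in BC57. With 2 counts in urothelium, Dsg3 passed the filter in the latter fits through its BC57 libraries alone, which fixed its direction there. The call therefore adds no support to the ratio. The conditions did not share a direction for Dsg3.

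Shares per kb of exon describe the balance of isoforms within a family. Dsc3 made up 37.5%, 34.6% and 36.3% of the summed Dsc2 and Dsc3 level in BC57 poly(A) libraries and 0.0881%, 0.335% and 0.165% in urothelium. Over the 27 libraries of each sample outside SMARTer fixed RNA, the Dsc3 share had a median of 38.6% (0 to 93.2%) in BC57 and 0% (to 0.496%) in urothelium. The 0% in BC57 was the shallow 50 pg library. Among the plakophilins, Pkp2 made up 23.6%, 24.2% and 22.8% in BC57 and 9.08%, 7.07% and 6.31% in urothelium with poly(A), Pkp3 leading in both samples. Over the 27 libraries the Pkp2 share had a median of 35.8% (22.8 to 51.1%) in BC57 and 9.82% (1.14 to 69.9%) in urothelium, the highest value being library 1 of fixed urothelium at 50 pg. Dsg2 made up a median of 95.0% of the summed Dsg2 and Dsg3 level in BC57 and 99.8% in urothelium over those libraries.

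**Figure D3:**
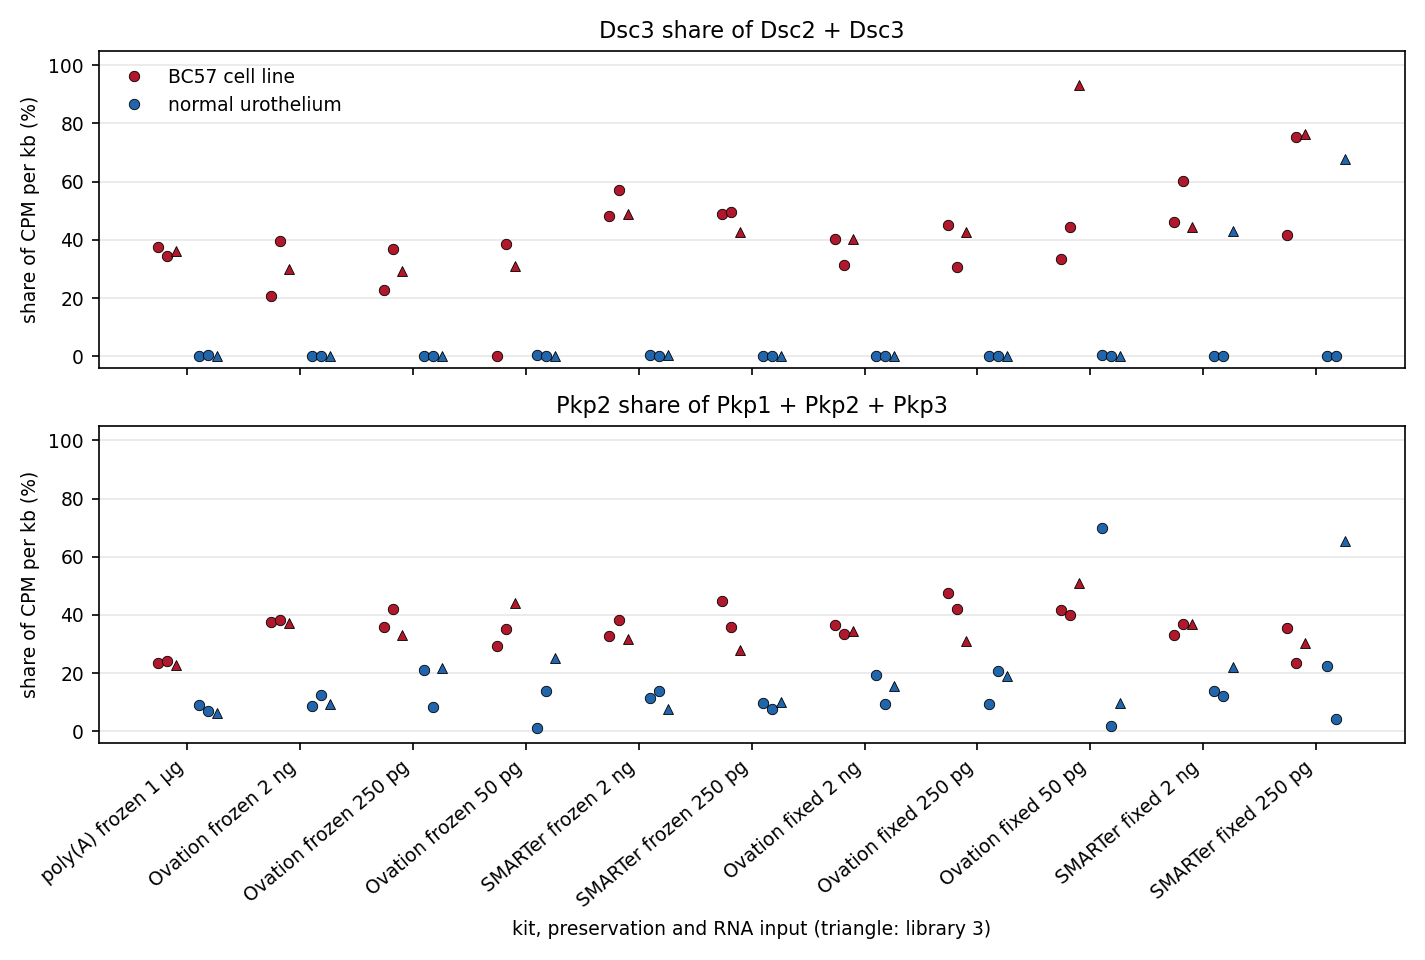
Share of Dsc3 in the summed Dsc2 and Dsc3 level (upper panel) and of Pkp2 in the summed plakophilin level (lower panel), in percent of CPM per kb, for each library of BC57 (red) and urothelium (blue). Conditions run along the x axis and triangles are libraries numbered 3. The Dsc3 share of urothelium is at most 0.496% except in the SMARTer fixed libraries numbered 3, and the Pkp2 share of BC57 is 22.8 to 51.1%.

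Formalin fixation was compared with freezing in Ovation libraries at 2 ng. Frozen and fixed RNA came from separate portions, so fixation and a difference between portions cannot be told apart. The fixation effect named below is the difference between fixed and frozen RNA. In urothelium 6 of the 8 desmosome genes tested, Dsp, Jup, Pkp3, Dsg2, Dsc2 and Perp, were lower in fixed RNA, and none was higher (37.3% of all genes passed, 19.3% higher and 17.9% lower). In BC57 4 of 9 were lower, Dsp, Pkp2, Pkp3 and Dsc2 (32.3% of all genes passed, 16.6% higher and 15.6% lower). The median log2 difference was -0.56 over the genes tested in urothelium and -0.15 in BC57, beside 0.00 over all genes in either.

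Urothelial Dsp fell from 555, 505 and 502 CPM in frozen to 264, 281 and 283 in fixed RNA (log2 difference -0.91, SE 0.07, edgeR adjusted p = 2.63e-17). Jup fell from 227, 206 and 198 CPM to 139, 121 and 127 (-0.70, SE 0.09, edgeR adjusted p = 9.1e-10), and Pkp3 from 42.9, 30.4 and 34.1 to 11.5, 19.2 and 15.4 (-1.22, SE 0.21, edgeR adjusted p = 1.99e-06). Perp fell from 528, 594 and 611 CPM to 414, 400.5 and 402 (-0.51, SE 0.07, edgeR adjusted p = 4.24e-09). All frozen libraries lay above all fixed libraries for each of these plaque and membrane proteins. Of the cadherins, Dsg2 went from 265, 282 and 278 CPM to 214, 210.2 and 224 (-0.35, edgeR adjusted p = 0.000145), and Dsc2 from 54.3, 74.6 and 70.0 to 46.2, 36.8 and 47.7 (-0.60, edgeR adjusted p = 0.000457). Pkp1 (-0.41, edgeR adjusted p = 0.249) and Pkp2 (-0.41, edgeR adjusted p = 0.402) did not pass. On the deposited log2 scale, 5 of the 6 passed, Dsg2 excepted (-0.19, adjusted p = 0.0611 by limma). Marker sums moved too: in urothelium luminal markers went from 5295 to 5662 CPM in frozen to 3885 to 4066 in fixed libraries, basal markers from 1917 to 2033 to 1013 to 1052, and fibroblast markers from 9714 to 10250 to 12764 to 12897, where none of the 6 was at 0. In BC57, with Lum at 0, fibroblast markers summed to 10.7 to 14.96 and then 13.98 to 17.4 CPM, and luminal markers to 260.1 to 280.1 and then 181 to 215. Their part in these falls was not tested.

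In BC57 the changes of Dsp, Jup, Pkp3 and Perp were smaller than in urothelium, and those of Pkp2 and Dsc2 were about as large. Dsp went from 214, 253 and 237 CPM to 179.6, 204 and 213 (-0.24, SE 0.08, edgeR adjusted p = 0.0192). Pkp2 went from 66.8, 68.1 and 70.2 CPM to 47.5, 46.3 and 54.01 (-0.47, SE 0.12, edgeR adjusted p = 0.00196). Pkp3 went from 51.9, 55.3 and 58.7 CPM to 36.9, 44.5 and 48.8 (-0.35, edgeR adjusted p = 0.0393), and Dsc2 from 32.2, 21.2 and 26.4 to 18.6, 20.2 and 14.3 (-0.60, edgeR adjusted p = 0.0183). For all 4 genes, which were picked by the test on these same libraries, the frozen and fixed libraries did not overlap, though those of Dsp nearly touched. Jup (-0.15), Pkp1 (-0.15), Dsg2 (0.07), Dsc3 (-0.09) and Perp (-0.03) did not pass. The number passing fell from 4 to 1 with DESeq2, the one left being Pkp2, and to 2 without fixed library 1, frozen library 1 or frozen library 2. The Dsp call was lost without fixed library 1 or frozen library 2 (edgeR adjusted p = 0.137 and 0.126), that of Dsc2 without fixed library 3 or frozen library 1 (0.0852 and 0.159), and that of Pkp3 without any 1 library except fixed library 3 (0.0501 to 0.194). On the deposited log2 scale, where the median over all genes shifted to 0.27, Dsp turned to 0.029 and 1 gene of the set passed, as higher. On that scale 87.6% of the genes passing in BC57 were higher after fixation, against 51.6% with edgeR, and in urothelium 71.1% against 51.9%.

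**Figure D4:**
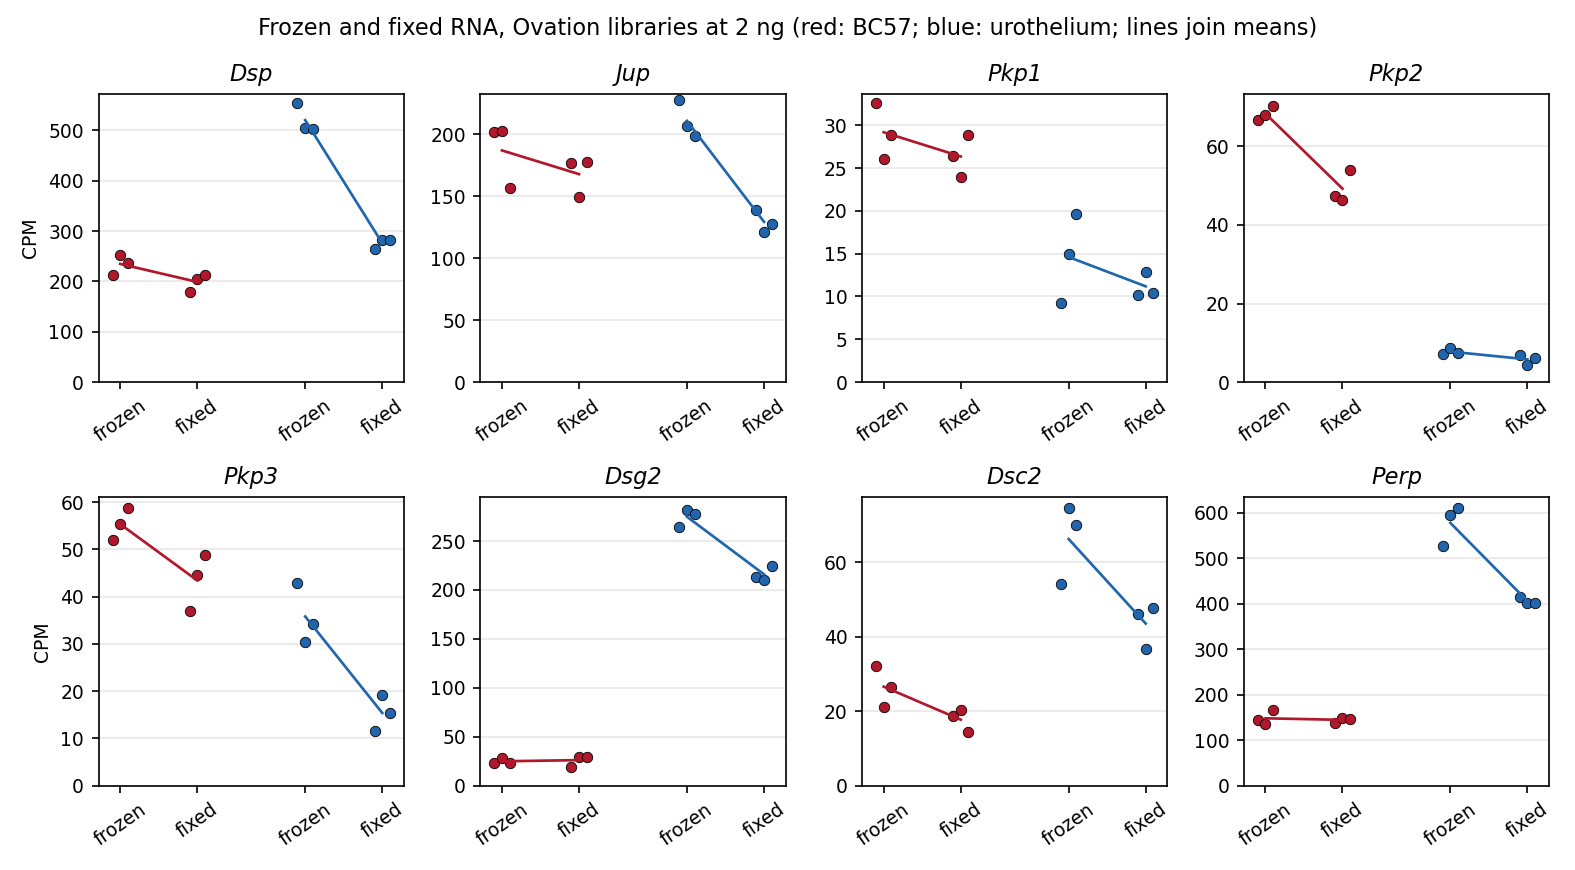
CPM of 8 desmosome genes in Ovation libraries at 2 ng from frozen and fixed BC57 (red) and urothelium (blue). Points are libraries, lines join group means and every y axis starts at 0. In urothelium Dsp goes from 502 to 555 CPM in frozen to 264 to 283 in fixed libraries, while in BC57 the frozen and fixed libraries of Perp and of Dsg2 overlap.

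The difference of the 2 fixation effects was tested directly. For 4 of the 9 genes tested it passed edgeR's test, against 5.9% of all genes (4.26% higher and 1.64% lower). The fall of Dsp in fixed RNA was smaller in BC57, by a log2 difference of 0.65 (SE 0.11, edgeR adjusted p = 1.27e-05), as were those of Jup (0.52, SE 0.13, edgeR adjusted p = 0.00565), Perp (0.45, SE 0.11, edgeR adjusted p = 0.00469) and Pkp3 (0.85, SE 0.24, edgeR adjusted p = 0.0201). The Pkp3 difference did not pass with DESeq2 (0.82, adjusted p = 0.0574) or without BC57 fixed library 3, BC57 frozen library 1, urothelial fixed library 1 or urothelial frozen library 1 (edgeR adjusted p from 0.0546 to 0.109). Dsg2 (0.39, edgeR adjusted p = 0.215), Pkp1 (0.25), Pkp2 (-0.09) and Dsc2 (-0.02) did not differ by this test. Dsc3 was tested too and did not pass, but with 0 counts in both urothelial groups no difference could be measured for it. On the deposited log2 scale the 4 genes that passed were again all positive, but there 88.0% of all genes passing were higher, against 72.2% with edgeR.

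With SMARTer at 2 ng, 0 of 9 desmosome genes passed between fixed and frozen BC57 (17.8% of all genes, 9.25% higher and 8.57% lower; 2 at an unadjusted p under 0.05; 0 with DESeq2) and 0 of 8 in urothelium (1.87%, 1.32% higher and 0.551% lower; 3 at an unadjusted p under 0.05; 1 with DESeq2) by edgeR. Urothelial Dsp was 817, 772 and 830.3 CPM in frozen and 389, 335 and 118 in fixed libraries, Jup 153.5, 164 and 162 against 127, 90.2 and 62.3, and Dsg2 299.8, 302 and 301 against 193, 208 and 75.3, with no overlap. Such separation describes these genes only and does not offset the test. The lowest fixed value of each came from library 3. Without the libraries numbered 3 of the fixed groups, 4 passed in urothelium: Dsp (-1.16, edgeR adjusted p = 6.8e-08), Jup (-0.57, edgeR adjusted p = 0.00333), Pkp3 (-0.99, edgeR adjusted p = 0.00313) and Dsg2 (-0.59, edgeR adjusted p = 9.5e-05). Calls over all genes in urothelium rose in that fit too, by the numbers in the closing section. In BC57, Pkp3 (-0.59, edgeR adjusted p = 0.0358) and Pkp2 (-0.42, edgeR adjusted p = 0.0404) passed without the fixed library 3, and 1 gene passed without frozen library 2. With the replicate block, in the pairing that the library numbers gave for BC57, Pkp3 passed (-0.45, edgeR adjusted p = 0.0176).

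RNA input was compared at 50 pg and 2 ng in frozen Ovation libraries, and no desmosome gene passed. In BC57 the count was 0 of 9 (0.0266% of all genes passed, 3 genes; 793 genes but 0 of the set at an unadjusted p under 0.05; 28 genes with DESeq2). In urothelium it was 0 of 8 (0.0% of all genes; 706 genes at an unadjusted p under 0.05; 16 with DESeq2). BC57 Dsp was 258, 184 and 252 CPM at 50 pg and 222, 262 and 246 at 2 ng, a log2 difference of -0.09 with a 95% interval of -0.36 to 0.17. Urothelial Perp differed by -0.07 (-0.25 to 0.10) and Dsg2 by 0.04 (-0.18 to 0.27). The widest intervals were those of the low genes: Pkp2 in urothelium, 0.668, 6.06 and 16.6 CPM at 50 pg against 6.98, 8.65 and 7.35 at 2 ng, had an interval of -1.70 to 1.71. Differences within that interval could not be told from 0 here.

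Against poly(A), both total RNA kits gave more Dsp and Dsg2 and less Pkp3 in both samples. Kit, RNA input (2 ng against 1 µg) and library depth changed together here and cannot be told apart. Dsp in BC57 was 238, 282 and 265 CPM with Ovation at 2 ng against 184, 183 and 188 with poly(A) (log2 difference 0.50, SE 0.05, edgeR adjusted p = 6.56e-09). In urothelium it was 597, 544 and 541 CPM against 381, 385 and 378 (0.55, SE 0.06, edgeR adjusted p = 1.34e-09). With SMARTer at 2 ng it was 323, 346 and 373 CPM against 161, 161 and 165 in BC57 (1.10, SE 0.06, edgeR adjusted p = 1.61e-09) and 885, 838 and 901 against 339.8, 342 and 334 in urothelium (1.37, SE 0.05, edgeR adjusted p = 5e-14). Every kit library lay above every poly(A) library. With Ovation, 7 of 10 genes passed in BC57, 5 higher and 2 lower (59.9% of all genes, 30.3% higher and 29.6% lower), and 6 of 8 in urothelium, 4 higher and 2 lower (56.7%, 28.1% and 28.6%). With SMARTer it was 8 of 10 in BC57, 5 higher and 3 lower (57.5%, 29.5% and 27.9%), and 5 of 8 in urothelium, 2 higher and 3 lower (57.7%, 29% and 28.7%).

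Pkp3 was lower than with poly(A) by log2 differences of -0.84 (edgeR adjusted p = 2.99e-10) and -0.59 (0.000124) with Ovation and -0.72 (5.6e-05) and -0.55 (0.000185) with SMARTer, in BC57 and urothelium in turn. Dsg2 was higher by 0.29 and 0.31 with Ovation and 0.62 in each sample with SMARTer. The Ovation value of BC57 did not pass without Ovation library 1, 2 or 3 or poly(A) library 1 (edgeR adjusted p from 0.0663 to 0.370), without the low-count filter (0.19, edgeR adjusted p = 0.299) or with the replicate block (0.29, edgeR adjusted p = 0.0712). Jup was -0.09 and -0.03 with Ovation, not passing, and -0.28 and -0.25 with SMARTer, passing. Perp was higher with Ovation (0.61 and 0.36) and, in BC57, with SMARTer (0.18, edgeR adjusted p = 0.0385). That last call was lost without any 1 of 5 libraries (edgeR adjusted p from 0.0571 to 0.276), SMARTer library 3 being the exception, and without the low-count filter (0.091, edgeR adjusted p = 0.306). Pkp1 was lower with Ovation in BC57 (-0.27, edgeR adjusted p = 0.0297) and urothelium (-0.71) and with SMARTer in urothelium (-0.42). The BC57 value did not pass without Ovation library 2 or 3 or poly(A) library 3 (edgeR adjusted p from 0.0520 to 0.126). Dsc2 was higher with Ovation (0.65 and 0.41), and with SMARTer in BC57 was lower (-0.28, edgeR adjusted p = 0.0472), a call lost without any 1 of the 6 libraries (edgeR adjusted p from 0.0516 to 0.107), with RLE scaling (edgeR adjusted p = 0.0534), with DESeq2 (adjusted p = 0.0686) and with the replicate block (edgeR adjusted p = 0.0965). Pkp2 in BC57 was higher with Ovation (0.27, edgeR adjusted p = 0.0023) and SMARTer (0.20, edgeR adjusted p = 0.0211), and the latter call was lost without poly(A) library 1 or 3 or SMARTer library 1 (edgeR adjusted p from 0.0699 to 0.210). Without the low-count filter neither Pkp2 call held, at 0.17 (edgeR adjusted p = 0.0806) with Ovation and 0.11 (edgeR adjusted p = 0.232) with SMARTer. Leaving out poly(A) library 1 or 3 or SMARTer library 1 lowered the SMARTer count in BC57 from 8 to 5. The 2 kits share their poly(A) controls, so their values stand side by side and no overlap between them is given.

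**Figure D5:**
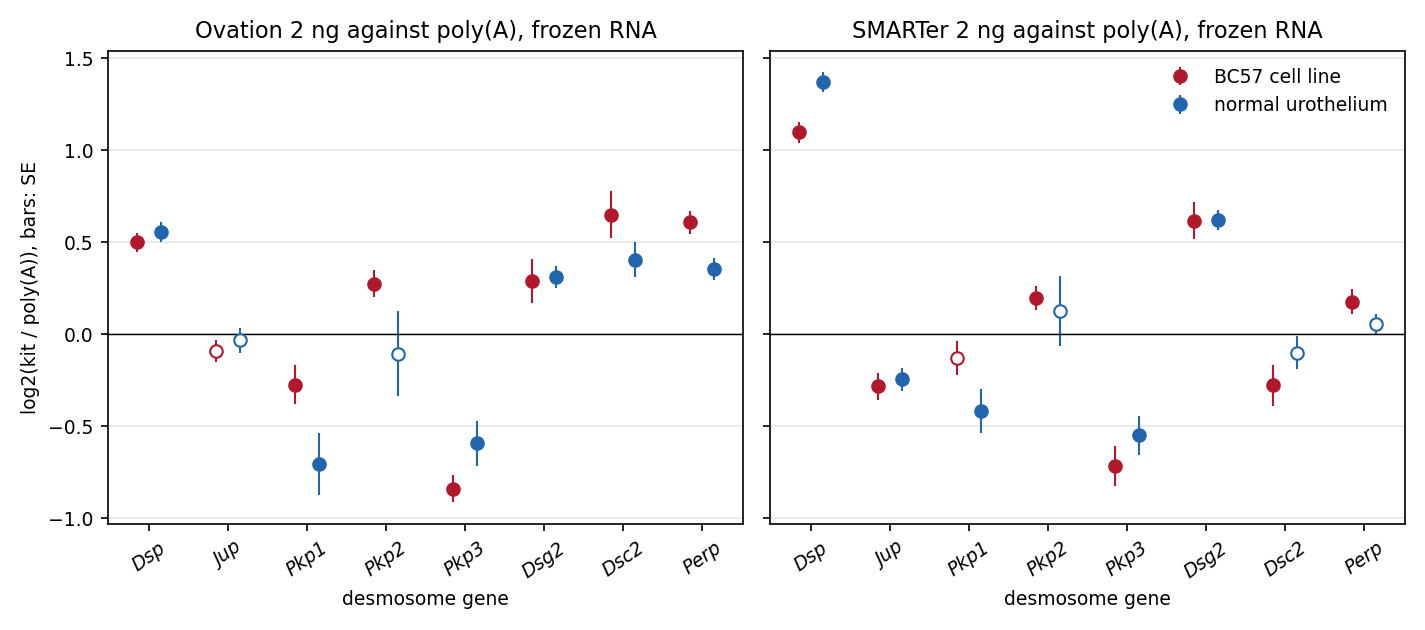
Log2 difference between each total RNA kit at 2 ng and poly(A) (y axis) for 8 desmosome genes (x axis) in frozen BC57 (red) and urothelium (blue), with bars of 1 SE. Filled points passed an adjusted p of 0.05. Dsp is 0.50 and 0.55 with Ovation and 1.10 and 1.37 with SMARTer, and Pkp3 lies between -0.84 and -0.55.

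The genes whose level over the 22 groups ran most like each desmosome gene were taken from 11576 candidates by Pearson's r of log2(CPM + 1) group means. For Dsg2 the closest were Pdcd4 (r = 0.993), Shh and Unc5a, for Pkp2 Cwh43 (0.993), Aldh18a1 and Shcbp1, and for Perp Nfe2l2 (0.99), Enpp5 and Hsdl2. For Dsc3 they were Lrp2 (0.981), Gad2 and Ccbe1, for Dsc2 Id1 (0.967), Btg1 and Klhl5, and for Jup Srebf2 (0.954), Tkt and G6pdx. Pkp3 ran most like Slirp (0.943), Pkp1 like Mrpl55 (0.938), Dsp like Diaph1 (0.927), and Dsg3, with the lowest value, like Saal1 (0.735). The groups share 4 RNA samples and 3 kits, so these values describe likeness over this set of libraries only. They include the SMARTer fixed libraries numbered 3, and the highest urothelial group mean of Dsg3, 19.2 CPM, came from 1 such library alone.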

How the data were processed

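The authors deposited raw counts per gene for each kit and a log2 table of the same genes. Per the submitters' processing notes, STAR, SAMtools and featureCounts were used with mm10; versions, annotation and use of strand were not given in the sources used here. Log2 values deposited by the authors were recomputed from the counts as log2(count × 1000 / upper quartile + 1). Identifiers were matched to GENCODE annotation of the same build, 37607 of 39179 matching.

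Each comparison was fitted on its own libraries with edgeR 4.0.16 (quasi-likelihood test, TMM scaling, filterByExpr with a minimum count of 10 and total of 15), adjusted by Benjamini-Hochberg over all genes tested and called at 0.05. R was 4.3.3, limma 3.58.1 and DESeq2 1.42.0. Standard errors are the log2 difference over the square root of F. Alternatives were RLE scaling, no low-count filter, DESeq2, a replicate block, the deposited log2 values with limma, each library left out, and, for SMARTer fixed groups, the libraries numbered 3 left out. The desmosome genes, the other lists and markers were chosen with earlier results of these data known; all 10 are named, with at most 5 of each other list by size of difference plus Cdh1, Krt5, Krt8 and Trp63, and every gene of the desmosomal family list. On simulated counts, 91.9% of 2-fold changes were recovered in the poly(A) comparison (17611 genes), 74.2% in the Ovation frozen 2 ng comparison (12694 genes) and 45.2% in the difference of fixation effects (13804 genes). Of the calls made there, 4.08%, 1.76% and 8.97% in turn were false. The simulation gave every gene the same spread, so these rates may not hold for the libraries themselves.

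Library numbers were taken to pair samples only where all 3 correlations of same-numbered libraries' deviations passed 0.1: SMARTer fixed RNA at 2 ng (0.25, 0.24 and 0.35) and SMARTer BC57 at 2 ng, fixed with frozen (0.22, 0.16 and 0.28).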

Additional observations from a re-analysis of the deposited data

Results flagged for a closer look

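The difference between fixed and frozen RNA was not the same in BC57 and urothelium for 4 desmosome genes in Ovation libraries at 2 ng. Fixation and a difference between the divided portions cannot be told apart here. The result is from a test of the difference itself in edgeR, which 5.9% of all genes passed. On simulated counts that gave every gene the same spread and changed only 200 genes, 8.97% of the calls of this test were false. That rate may not hold for the libraries themselves. The log2 effect in BC57 minus that in urothelium was 0.65 for Dsp, 0.52 for Jup, 0.85 for Pkp3 and 0.45 for Perp. For Dsp the effects were -0.24 and -0.91, for Jup -0.15 and -0.70, for Pkp3 -0.35 and -1.22 and for Perp -0.03 and -0.51. The Pkp3 difference did not pass with DESeq2 (adjusted p = 0.0574) or in 4 of the fits that left out 1 library (edgeR adjusted p from 0.0546 to 0.109). The 2 samples also differ in what else they hold, fibroblast markers summing to 9714 to 10250 CPM in frozen urothelium and 10.7 to 14.96 in frozen BC57, and the part of this in the difference was not tested.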

How the results depend on the processing

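Over the alternatives, the desmosome genes named as passing, and all of them with poly(A), kept direction and side of the threshold in 1121 instances, lost the threshold in 110, passed it in 2 and reversed in 2: Jup with poly(A) (-0.044) and Dsp in fixed against frozen BC57 (0.029), both on the deposited log2 values with limma. Outside poly(A), genes that did not pass in the main fit were not in this tally. Calls they gained under an alternative, as by Jup with Ovation frozen RNA at 2 ng, are therefore not counted in it. Ppl with poly(A) reversed without the low-count filter (0.0069) and ranged from -0.072 to 0.0081 with a library left out.

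In SMARTer fixed RNA at 2 ng, genes passing between samples numbered 4489, 9280 without the libraries numbered 3, and 1121 to 7408 with 1 library left out, and members 4, then 2 without the filter, 8 and 0 to 6. At 250 pg genes were 1244, 2058 without the filter, 2549 with DESeq2, 2963 without the libraries numbered 3 and 161 to 2628 with 1 left out, and members 1, 2 with RLE, 3 with DESeq2, 3 and 0 to 3. With Ovation fixed RNA at 50 pg, members were 5, and 3 to 4 with 1 library left out. In fixed against frozen BC57 with Ovation, members were 4, then 1 with DESeq2, 1 with limma and 2 to 4. With SMARTer, BC57 genes were 2291, 630 with limma and 1164 to 2487, and members 0, 1 without the filter, 1 with the replicate block, 2 without the fixed library 3 and 0 to 2. Urothelial genes were 271, then 85 without the filter, 1835 with DESeq2, 76 with the replicate block, 43 with limma, 4124 without the fixed library 3 and 0 to 4124, and members 0, 1 with DESeq2, 4 and 0 to 4. Of the genes passing with limma in BC57, 97.9% were higher, against 51.9%. Between 50 pg and 2 ng, BC57 genes were 3, then 7 with RLE, 61 without the filter, 28 with DESeq2, 42 with the replicate block, 0 with limma and 0 to 15. Urothelial genes were 0, then 13, 16 and 3 without the filter, with DESeq2 and with the block, and 0 to 2. Members with SMARTer against poly(A) in BC57 were 8, and 5 to 8. The replicate block changed no other count of calls beyond 1.5 times. Where numbers paired, in SMARTer fixed RNA at 2 ng, the block left 4 members. Elsewhere samples share only a number (correlations -0.04 to 0.13). Few counts limit Dsg3 outside poly(A) and Dsc3 in urothelium.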
